A study of Homo sapiens with 5 samples.

Results

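Doxorubicin reaches its nuclear targets only after it has entered the cell and escaped export and chemical reduction. The genes examined here encode well-known handling proteins: 4 ATP-driven efflux pumps (ABCB1, ABCC1, ABCC2 and ABCG2), 4 carbonyl and aldo-keto reductases (CBR1, CBR3, AKR1A1 and AKR1C3) and 2 flavoenzymes that act on quinones (POR and NQO1). The 10 genes were chosen by name, as transporters and reductases known to act on the drug, and all 10 are among the 26485 genes of the count table. RNA-seq was performed on RPE1, a wild-type human cell line derived from the retinal pigment epithelium, after 18 h with DMSO (2 libraries), 0.2 μM doxorubicin (2 libraries) or 0.34 μM doxorubicin (1 library). All cells came from this single line, and 0.34 μM was measured in 1 library without a replicate. The study's methods call the libraries biological replicates. The treatment text in the labels and the study's methods give far higher doxorubicin concentrations than the sample titles, whereas the study's results give 0.2 and 0.34 μM. The values used here are those of the sample titles.

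As background, the pumps bind the drug or its conjugates and move them out of the cell at the cost of ATP, and high ABCB1 or ABCC1 is a classical feature of multidrug-resistant lines. Carbonyl and aldo-keto reductases turn the side-chain ketone of doxorubicin into an alcohol, doxorubicinol, which binds DNA less well and is linked to cardiac toxicity. POR, the reductase that feeds electrons to microsomal cytochromes P450, can pass a single electron to the quinone of the drug, which then cycles with oxygen, whereas NQO1 reduces quinones by transferring electrons in pairs. NQO1, AKR1C3 and ABCC1 are among the known targets of NRF2, the oxidative stress regulator.

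The libraries held between 23773061 and 36725345 counts on genes, and 3 counts, taken as the limit of detection, correspond to between 0.0817 and 0.126 CPM (counts per 1000000 counts of a library). Levels within a gene are given as CPM after TMM normalization, and levels between genes only as CPM per kilobase of the MANE Select transcript. The treatment was visible in known responders, since CDKN1A (p21, an arrest gene) had a fitted log2 fold change of 3.39 and PLK1 (a mitotic kinase) one of -5.53 in edgeR's quasi-likelihood test (adjusted p = 0.000768 and 0.000136). MDM2, which restrains p53, had one of 2.19 in the same edgeR test (adjusted p = 0.00246). With a single library left out, the estimate stayed between 3.28 and 3.52 for CDKN1A and between 2.00 and 2.30 for MDM2, though not every such fit kept the call. Of the tissue's markers, MITF lay at 42.9 ± 19.5 CPM and OTX2 at 26.4 ± 4.02 CPM in DMSO (SD, n = 2), with the epithelial keratins KRT8 and KRT18 at 357 ± 16.7 and 282 ± 62.7 CPM. By contrast, RPE65, RLBP1, TYR and TYRP1, which define differentiated pigment epithelium, had at most 8 counts in any library. PMEL, a melanosome protein, had 7 and 5 counts in DMSO, 22 and 32 at 0.2 μM and 46 at 0.34 μM (adjusted p = 0.0264 in edgeR and 0.00868 in DESeq2). It passed the filter on low counts only through the doxorubicin libraries, so its p-values are given as a description only. BEST1, a chloride channel of this epithelium, had 26 and 14 counts in DMSO, 86 and 30 at 0.2 μM and 142 at 0.34 μM (adjusted p = 0.0823 in edgeR and 0.0161 in DESeq2). The 10 markers summed to between 637 and 783 CPM in DMSO and between 1050 and 1249 CPM in doxorubicin, most of it from the general epithelial keratins. Without KRT8 and KRT18 the sum was between 53.8 and 87.6 CPM in DMSO and between 71.4 and 80.4 CPM in doxorubicin. The part of these markers in the results was not tested. Of 11 markers of other cell types 2 (CD3E and HBB) were at 0 in every library and none exceeded 2.87 CPM, and their sum lay between 0.610 and 3.02 CPM in DMSO and between 2.24 and 6.11 CPM in doxorubicin. PTPRC, with the highest mean CPM of these, lay at 0.232 ± 0.0590 CPM in DMSO (SD, n = 2) and 1.72 ± 0.660 CPM in doxorubicin (SD, n = 3). Its adjusted p was 0.0212 in edgeR and 0.000571 in DESeq2. PTPRC passed the filter on low counts only through the doxorubicin libraries, so these p-values are a description only. Both libraries titled as second replicates shared part of their difference from the first ones (Pearson's r = 0.510 across 14187 genes, a description with genes as points), and this is given below where it touches a gene.

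The annotated start sites of 4 of these genes are shown because their levels span the range found here, from near the limit of detection to the highest of the set. For ABCB1 the window is that of the start nearer to the coding sequence. Each line gives the 250 bases before a RefSeq start on GRCh38.p14, 5′ to 3′ on the gene's strand, with matches to 6 short motifs in capitals on either strand. The motifs were the CCAAT box, the GC box with the letters GGGCGG, the E-box with CACGTG, the TATA box with TATAAA, the core of the dioxin response element with GCGTG and that of the antioxidant response element with TGACNNNGC, and overlapping matches share their capitals.
ABCB1, chr7:87600885-87601134, minus strand: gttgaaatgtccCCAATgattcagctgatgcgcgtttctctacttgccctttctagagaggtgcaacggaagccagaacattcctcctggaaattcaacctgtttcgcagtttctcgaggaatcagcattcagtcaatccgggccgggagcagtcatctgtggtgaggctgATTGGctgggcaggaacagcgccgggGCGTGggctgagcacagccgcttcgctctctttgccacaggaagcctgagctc
CBR1, chr21:36069774-36070023, plus strand: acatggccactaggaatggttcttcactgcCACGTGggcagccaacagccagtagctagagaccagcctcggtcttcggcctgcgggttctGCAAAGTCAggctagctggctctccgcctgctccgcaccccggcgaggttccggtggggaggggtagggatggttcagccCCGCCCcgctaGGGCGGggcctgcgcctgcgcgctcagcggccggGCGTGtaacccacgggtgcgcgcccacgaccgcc
AKR1A1, chr1:45550576-45550825, plus strand: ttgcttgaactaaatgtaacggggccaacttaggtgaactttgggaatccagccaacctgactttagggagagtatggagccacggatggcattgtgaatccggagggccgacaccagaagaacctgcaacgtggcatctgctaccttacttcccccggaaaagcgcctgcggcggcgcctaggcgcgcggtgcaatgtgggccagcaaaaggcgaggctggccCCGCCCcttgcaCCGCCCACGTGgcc
NQO1, chr16:69726561-69726810, minus strand: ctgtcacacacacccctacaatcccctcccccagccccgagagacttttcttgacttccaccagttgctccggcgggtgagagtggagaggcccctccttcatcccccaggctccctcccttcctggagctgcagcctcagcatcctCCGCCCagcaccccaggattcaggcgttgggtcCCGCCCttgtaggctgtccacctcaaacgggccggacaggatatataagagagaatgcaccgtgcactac

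The windows of CBR1, AKR1A1 and NQO1 each held 2 copies of GGGCGG, a motif present in 42.6% of the 35116 RefSeq windows of this length. CACGTG, the E-box found in 6.34% of windows, occurred in those of CBR1 and AKR1A1. Counting back from the start, it lay at -220 to -215 in CBR1 and at -9 to -4 in AKR1A1, where it shared a base with a GC box. CBR1 was the only one of the 4 to hold TGACNNNGC (10.9% of windows), on the opposite strand, and GCGTG (32.2% of windows) occurred in CBR1 and ABCB1. The ABCB1 window held 2 copies of CCAAT (32.0% of windows), 1 on each strand, and none of the 4 held TATAAA (10.7% of windows). These matches describe the letters of the windows and are not evidence of binding. RefSeq windows were found for 7 of the 10 genes.

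Among the pumps, nearly all mRNA was that of ABCC1. ABCC1 (MRP1, an exporter of glutathione conjugates and of anthracyclines; chr16:15949143-16143053 of GRCh38) lay at 192 and 210.4 CPM in the DMSO libraries, at 272 and 211 CPM at 0.2 μM and at 255 CPM at 0.34 μM. Each doxorubicin library lay above both DMSO libraries, and replicate 2 of 0.2 μM was almost level with DMSO replicate 2. Its share of the summed level per kilobase of the 4 pumps was between 95.9% and 99.5% over the 5 libraries. The fitted log2 fold change, pooled doxorubicin over DMSO, was 0.29 (standard error 0.17, 95% interval -0.11 to 0.69), which did not pass the threshold of an adjusted p of 0.01 (adjusted p = 0.294, edgeR's quasi-likelihood test). In bulk RNA, fewer expressing cells and less RNA per cell cannot be told apart, for this gene and those that follow. The interval reached from a fold of 0.927 to one of 1.61.

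ABCB1 (P-glycoprotein, the classical multidrug pump; chr7:87503017-87713295) was at the edge of detection. It had 1 count in each DMSO library, 2 and 1 counts at 0.2 μM and 3 counts at 0.34 μM, so every library lay at or below the limit of 3 counts. With 2 counts in DMSO and 6 in doxorubicin in all, the ratio after scaling to library totals was 1.76 with a 95% exact counting interval of 0.316 to 17.9, which covers counting error only. The gene did not pass the filter on low counts and was not tested. Changes within that interval were not detectable at this depth, and the upper limit of its level in DMSO was 0.141 CPM.

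ABCC2 (MRP2, a pump of the apical membrane in liver and kidney; chr10:99782640-99852594) had 12 and 29 counts in DMSO, 9 and 25 at 0.2 μM and 29 at 0.34 μM. In CPM these were 0.458 and 1.14, 0.348 and 1.04, and 0.799, so that the ranges of the groups overlapped in part. The higher value of each pair belonged to the second replicate, by 2.48-fold in DMSO and 2.99-fold at 0.2 μM. Its fitted log2 fold change was -0.13 (95% interval -1.59 to 1.34, adjusted p = 0.914 in edgeR's quasi-likelihood test). The direction was not determined, since the estimate was 0.65 without DMSO replicate 2 and 0.20 without replicate 1 of 0.2 μM. With the replicate number as a block and the 0.34 μM library left out, it was -0.23 (adjusted p = 0.832 in edgeR's quasi-likelihood test).

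ABCG2 (BCRP, a half-transporter that works as a dimer and marks side-population cells; chr4:88090264-88231626) differed more between the DMSO libraries than between the treatments. It had 19 and 128 counts in DMSO, or 0.725 and 5.01 CPM, against 0.503 and 1.37 CPM at 0.2 μM and 0.413 CPM at 0.34 μM. Replicate 2 of 0.2 μM lay above DMSO replicate 1, so that the groups overlapped. The fitted log2 fold change of -1.93 had a standard error of 0.85 and a 95% interval from -3.96 to 0.10 (adjusted p = 0.181 in edgeR's quasi-likelihood test). It depended on the DMSO library used, being 0.03 once DMSO replicate 2 was dropped and -2.75 once DMSO replicate 1 was dropped. Each drop leaves DMSO with a single replicate number. At each replicate number the 0.2 μM value lay below the DMSO value. With the replicate number as a block and the 0.34 μM library left out, the estimate was -1.34 (adjusted p = 0.0638 in edgeR's quasi-likelihood test). CDH5, an endothelial cadherin in the list of other cell types, was high in the second replicates. It had 2 and 56 counts in DMSO, 4 and 69 at 0.2 μM and 5 at 0.34 μM. In that list, the endothelial marker VWF had 5 and 5 counts in DMSO, 15 and 5 at 0.2 μM and 24 at 0.34 μM. PECAM1, another one, had 3 and 6 counts in DMSO, 7 and 11 at 0.2 μM and 13 at 0.34 μM. VWF counts were thus not higher in the second replicates, and those of PECAM1 were higher there by only a few counts. The part of these markers in the ABCG2 values was not tested.

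**Figure D1:**
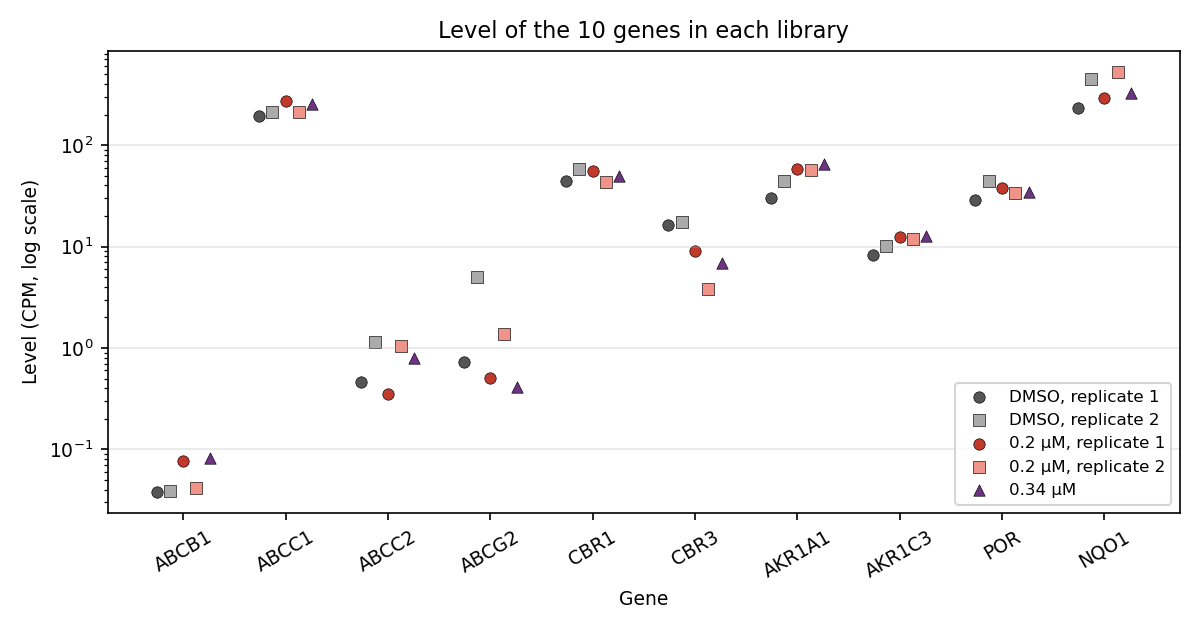
Level of each of the 10 genes (CPM after TMM normalization, logarithmic axis) in the 5 libraries, with circles and squares for first and second replicates. ABCC1 and NQO1 lie highest and ABCB1 lowest, at 0.0381 to 0.0827 CPM, and CBR3 is the only gene whose 3 doxorubicin libraries (3.78 to 8.97 CPM) all lie below both DMSO libraries (16.3 and 17.6 CPM).

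Of the reductases that make doxorubicinol, CBR3 and AKR1A1 had the estimates farthest from 0, in opposite directions, CBR3 being lower and AKR1A1 higher in each doxorubicin library than in both DMSO libraries. CBR3 (carbonyl reductase 3; chr21:36135079-36146562) had 428 and 449 counts in DMSO, 232 and 91 at 0.2 μM and 249 in the deeper 0.34 μM library. In CPM it lay at 16.3 and 17.6 in DMSO, at 8.97 and 3.78 at 0.2 μM and at 6.86 at 0.34 μM. Its level was thus 17.0 ± 0.891 CPM (SD, n = 2) in DMSO and 6.54 ± 2.61 CPM (SD, n = 3) in doxorubicin, and the 0.2 μM libraries differed from each other by more than the DMSO libraries did. The fitted log2 fold change was -1.37 (standard error 0.35, 95% interval -2.20 to -0.55), with an adjusted p of 0.0463 in edgeR's quasi-likelihood test that did not pass 0.01. DESeq2 on the same groups gave -1.38 with an adjusted p of 0.00204, which passed. When single libraries were dropped, the edgeR estimate stayed between -1.66 and -1.10, with adjusted p-values between 0.0397 and 0.145. The antisense gene CBR3-AS1, which overlaps CBR3, held 82 and 69 counts under DMSO, 106 and 86 under 0.2 μM and 119 under 0.34 μM. The sources used here do not state whether the counting separated the strands.

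AKR1A1 (aldehyde reductase; chr1:45550826-45570049), which overlaps no other annotated gene, had 781 and 1120 counts in DMSO, 1508 and 1373 at 0.2 μM and 2363 at 0.34 μM. These correspond to 29.8 and 43.9 CPM in DMSO, 58.3 and 57.1 CPM at 0.2 μM and 65.1 CPM at 0.34 μM. All 3 doxorubicin libraries lay above both DMSO libraries, which themselves differed by 1.47-fold. The fitted log2 fold change was 0.71 (standard error 0.20, 95% interval 0.22 to 1.19), and its adjusted p was 0.0652 in edgeR's quasi-likelihood test and 0.0210 in DESeq2, so that it did not pass in either. Leaving out DMSO replicate 1 lowered the estimate to 0.45 and leaving out DMSO replicate 2 raised it to 1.00.

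CBR1 (carbonyl reductase 1, the main cytosolic enzyme for this reaction in many tissues; chr21:36070024-36073164) lay at 43.9 and 58.0 CPM in DMSO, 55.3 and 43.1 CPM at 0.2 μM and 49.8 CPM at 0.34 μM. Of the doxorubicin values, 1 lay just below the lower DMSO library and the others lay between the DMSO libraries. Its fitted log2 fold change was -0.05 with a 95% interval from -0.50 to 0.41 (adjusted p = 0.898 in edgeR's quasi-likelihood test), so the fold lay between 0.709 and 1.32. CBR1 and CBR3 are neighbours on chromosome 21 and close relatives in sequence, and their values took different courses.

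AKR1C3 (an aldo-keto reductase that also acts on steroids and prostaglandins; chr10:5048781-5107686) lay at 8.28 and 10.1 CPM in DMSO, 12.3 and 11.8 CPM at 0.2 μM and 12.6 CPM at 0.34 μM. The groups did not overlap, with 9.21 ± 1.32 CPM (SD, n = 2) against 12.3 ± 0.402 CPM (SD, n = 3), yet the fitted log2 fold change of 0.41 (standard error 0.20, 95% interval -0.05 to 0.88) did not pass the threshold (adjusted p = 0.208, edgeR's quasi-likelihood test). AKR1C3 shares long stretches of sequence with AKR1C1 and AKR1C2, so its counts are uncertain. These relatives lay at 0.652 ± 0.589 and 0.632 ± 0.562 CPM in DMSO (SD, n = 2).

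Ratios of counts within a library do not depend on the normalization. They were chosen after the levels were seen and are given as a description, with no test. For each CBR1 count there were 0.372 and 0.303 counts of CBR3 in DMSO, 0.162 and 0.0878 at 0.2 μM and 0.138 at 0.34 μM. For AKR1A1 over CBR1 the ratios were 0.678 and 0.756 in DMSO, 1.05 and 1.32 at 0.2 μM and 1.31 at 0.34 μM. For ABCC1 over CBR1 they were 4.36 and 3.63 in DMSO, 4.91 and 4.89 at 0.2 μM and 5.13 at 0.34 μM. The treatments did not overlap in any of the 3 ratios. CBR1 is part of all 3, and the levels of CBR3, AKR1A1 and ABCC1 did not overlap by themselves, so this is not a separate result. Per kilobase, AKR1A1 made up 26.2% and 29.6% of the summed level of the 4 enzymes in DMSO, and 38.9%, 45.1% and 44.1% in doxorubicin. CBR3 made up 20.2% and 16.7% in DMSO and 8.43%, 4.21% and 6.55% in doxorubicin. The shares depend on the length used. With the union of all annotated exons, CBR3 made up 35.6% and 30.4% in DMSO and 16.8%, 8.88% and 13.4% in doxorubicin, and AKR1A1 20.8% and 24.3% in DMSO and 35.0%, 42.8% and 40.7% in doxorubicin.

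**Figure D2:**
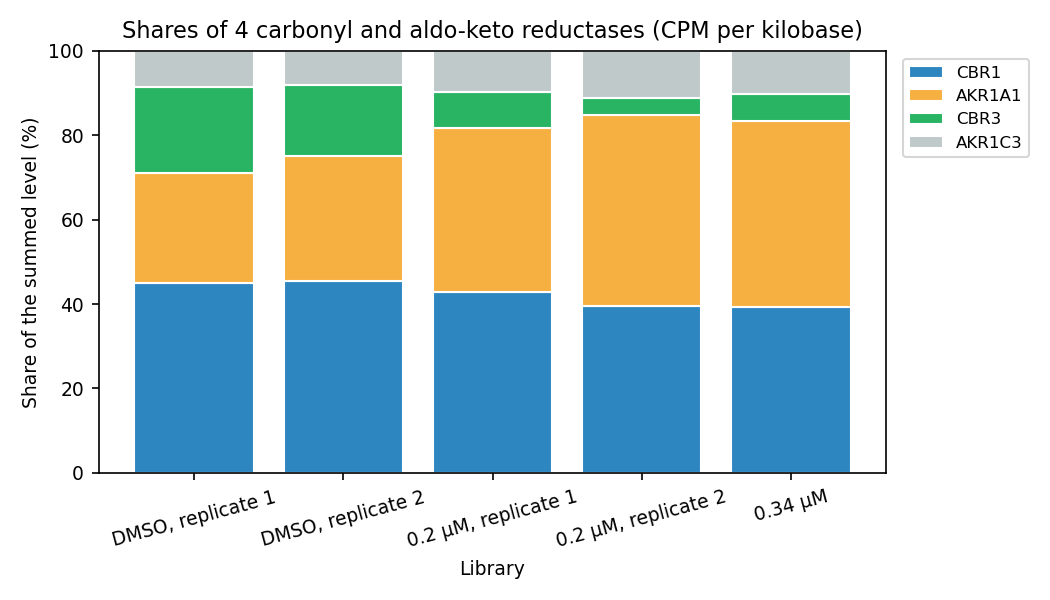
Share (%) of the level per kilobase summed over CBR1, AKR1A1, CBR3 and AKR1C3 that each gene takes in each of the 5 libraries (stacked bars). The AKR1A1 share is below 30% in both DMSO libraries and between 38.9% and 45.1% in the doxorubicin libraries, while the CBR3 share is at most 8.43% in the latter (16.8% with the union of exons as the length).

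POR (cytochrome P450 reductase; chr7:75915155-75986855) lay at 28.8 and 44.7 CPM in DMSO, 37.9 and 34 CPM at 0.2 μM and 34.4 CPM at 0.34 μM. All doxorubicin values fell between the DMSO values. The fitted log2 fold change was -0.05 (standard error 0.21, 95% interval -0.56 to 0.46, adjusted p = 0.894 in edgeR's quasi-likelihood test).

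NQO1 (NAD(P)H quinone dehydrogenase; chr16:69709401-69726560) had the highest level per kilobase of the 10 genes, and its values followed the replicate number rather than the treatment. It lay at 230.1 and 448 CPM in DMSO, 291 and 529 CPM at 0.2 μM and 329 CPM at 0.34 μM. The second replicate was higher by 1.95-fold in DMSO and by 1.82-fold at 0.2 μM. Its fitted log2 fold change was 0.18 with a 95% interval from -0.68 to 1.03 (adjusted p = 0.781 in edgeR's quasi-likelihood test). The sign changed with the DMSO library used, since dropping DMSO replicate 1 gave -0.24 and dropping DMSO replicate 2 gave 0.71. Each drop leaves DMSO with a single replicate number. With the replicate number as a block and the 0.34 μM library left out, the estimate was 0.29 (adjusted p = 0.414 in edgeR's quasi-likelihood test).

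**Figure D3:**
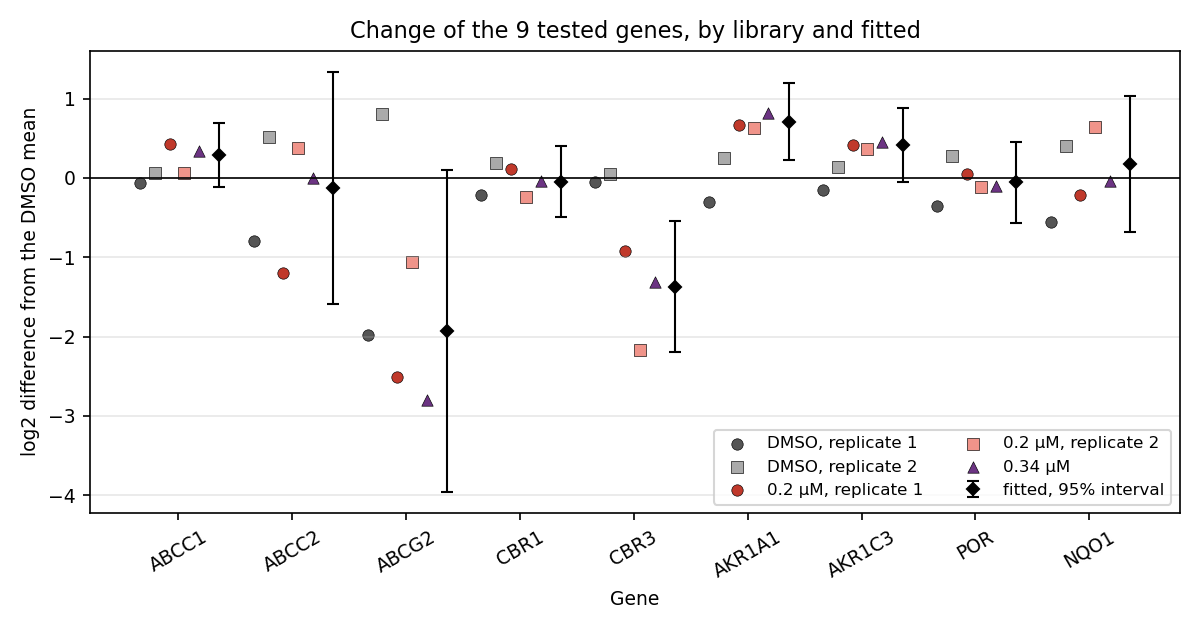
Difference of each library from the DMSO mean on the log2 scale for the 9 tested genes, with the pooled fitted log2 fold change and its 95% interval from edgeR as black diamonds and bars. The intervals of CBR3 (-2.20 to -0.55) and AKR1A1 (0.22 to 1.19) lie on one side of 0, and those of the other 7 genes cross it.

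Per kilobase, the DMSO levels were ordered NQO1, CBR1, ABCC1, AKR1A1, CBR3, POR, AKR1C3, ABCG2, ABCC2 and ABCB1. They reached from 134 ± 61.0 CPM per kilobase (SD, n = 2) for NQO1 and 42.2 ± 8.23 for CBR1 to 0.00743 ± 0.000139 for ABCB1. Of these neighbours, ABCC1 and AKR1A1, CBR3 and POR, and ABCG2 and ABCC2 had overlapping ranges, so that their order was not resolved. In doxorubicin AKR1A1 ranked second, with 42.8 ± 3.07 CPM per kilobase (SD, n = 3), next to CBR1 with 40.9 ± 5.05 and ABCC1 with 37.8 ± 4.84, and the order of AKR1A1 and CBR1 was not resolved, nor that of CBR1 and ABCC1. CBR3 ranked seventh there. With the union of all annotated exons in place of the MANE Select transcript, ABCC1 ranked above CBR1 and CBR3 above AKR1A1 in DMSO, and in doxorubicin AKR1A1 had rank 4, after ABCC1 and CBR1, and CBR3 rank 5.

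Taking the 9 tested genes together, 0 passed an adjusted p of 0.01 in edgeR, against 4.02% of the 14187 genes tested. At an unadjusted p under 0.05 there were 2, CBR3 and AKR1A1, against 30.8% of all genes tested. At an adjusted p under 0.05 CBR3 alone passed, as did 13.6% of all genes, and DESeq2 at 0.01 called CBR3 alone, against 14.1% of the genes it tested. Of the 9 genes, 3 were higher in each doxorubicin library than in both DMSO libraries (ABCC1, AKR1A1 and AKR1C3), as were 24.3% of all genes, and 1 (CBR3) was lower in each, as were 23.4% of all genes. The median log2 fold change was -0.05 over the 9 genes and 0.01 over all genes tested.

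In a fit of 3 conditions, none of the 9 genes passed at either dose in edgeR or DESeq2, and 2 had an unadjusted p under 0.05 in edgeR at each dose (CBR3 and AKR1A1), against 18.8% of all genes at 0.2 μM and 17.4% at 0.34 μM. At 0.2 μM against DMSO edgeR called 1.25% of 14745 genes, and at 0.34 μM 0.665%. For CBR3 the log2 fold change was -1.41 (standard error 0.43) at 0.2 μM and -1.31 (standard error 0.55) at 0.34 μM, with adjusted p-values of 0.141 and 0.284 from edgeR's quasi-likelihood test. For AKR1A1 it was 0.64 and 0.82, with adjusted p-values of 0.244 and 0.233 in the same edgeR test. For ABCG2 it was -1.62 and -2.78 with wide intervals, from -3.83 to 0.59 and from -5.84 to 0.27. Both comparisons share the DMSO libraries.

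Between the doses edgeR called 0% of the 14745 genes, and 27 had an unadjusted p under 0.05. DESeq2 also called 0, and there 33 had an unadjusted p under 0.05. Both counts lie far below what that cutoff would pass with no difference at all, so they are no sign of a difference. The difference of 0.34 from 0.2 μM on the log2 scale was 0.08 for ABCC1 (95% interval -0.59 to 0.76) and 0.10 for CBR3 (-1.13 to 1.34). It was 0.18 for AKR1A1 (-0.56 to 0.91), 0.02 for CBR1 (-0.72 to 0.75) and -0.32 for NQO1 (-1.49 to 0.86). The intervals leave room for changes of more than 1.5-fold in each of these genes, and they do not show that the doses acted alike. The spread behind them comes from the DMSO and 0.2 μM pairs.

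**Figure D4:**
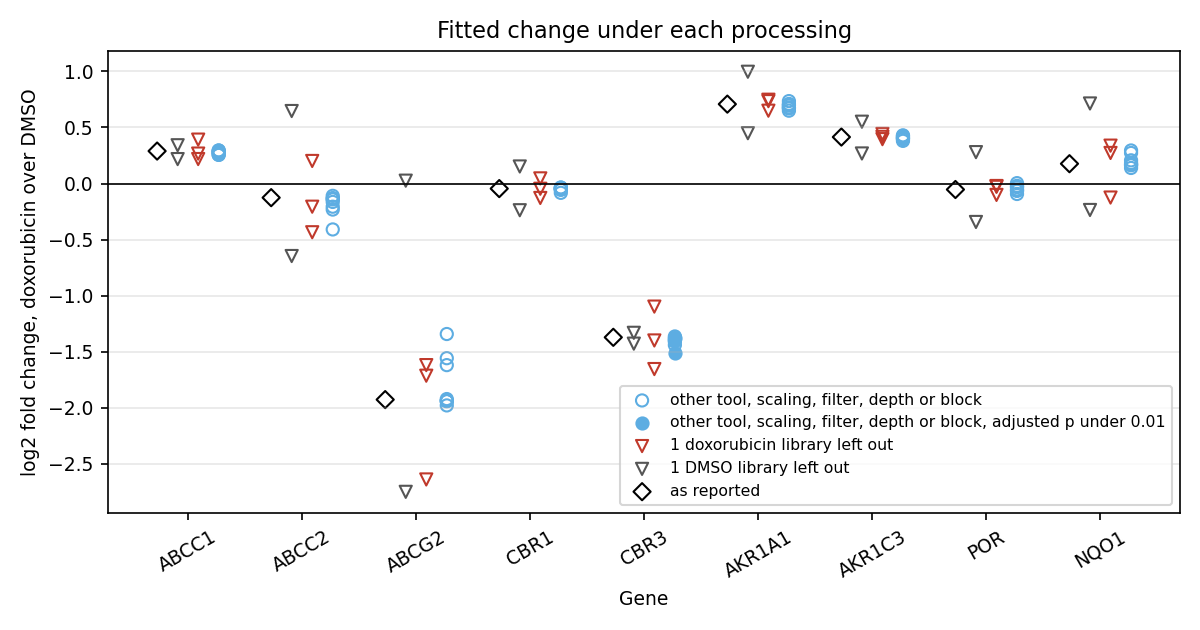
Fitted log2 fold change of the 9 tested genes as reported (diamonds), with 1 library left out (triangles) and with another tool, scaling, filter, depth or block (circles), filled where the adjusted p is under 0.01. CBR3 stays between -1.66 and -1.10 and AKR1A1 between 0.45 and 1.00, whereas ABCC2, ABCG2, CBR1, POR and NQO1 each cross 0 at least once.

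The genes around this set were read from 8 lists of 110 genes in all, of which 87 were tested. edgeR called 4 of them (4.6%, against 4.02% of all genes) and DESeq2 called 13, against 14.1% of all genes. All of these were higher in doxorubicin. Of all genes that edgeR called, 183 were higher and 388 lower, and this split was not counted for DESeq2. The 13 include ALDH3A1, which was kept only through the doxorubicin libraries, and the lists were chosen with earlier results of these data known. The median log2 fold change of the 87 was 0.13, against 0.01 over all genes tested. For the counts in each list that follows, the shares over all genes were 4.02% called in edgeR and 14.1% called in DESeq2. An unadjusted p under 0.05 in edgeR was found for 30.8% of all genes. The share of all genes with a higher estimate was not counted, so the counts of higher and lower estimates are a description only.

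Of 14 other efflux transporters and vault proteins, 11 were tested, 8 with a higher and 3 with a lower estimate, and none passed in edgeR while 3 did in DESeq2 (4 had an unadjusted p under 0.05 in edgeR). MVP, the major vault protein, had the highest mean CPM of the list, which is not corrected for length here or in the lists that follow, and lay at 204 ± 18.0 CPM in DMSO (SD, n = 2) and 365 ± 43.2 CPM in doxorubicin (SD, n = 3). Its log2 fold change of 0.84 missed the threshold in edgeR (adjusted p = 0.0243) and passed in DESeq2 (adjusted p = 0.000273). DESeq2 also called the transporters ABCC3 and ABCC10, which were named after their values were seen. They had 1.33 and 1.09 in edgeR (adjusted p = 0.0202 and 0.0464). Of 8 uptake carriers 4 were tested and none passed in either tool, with 1 at an unadjusted p under 0.05 in edgeR. The nucleoside carrier SLC28A3 had 1.25 and the organic anion carrier SLCO1B3 had 0.77 (adjusted p = 0.0617 and 0.236 in edgeR), and SLC22A16, a carrier known to take up doxorubicin that was named after its values were seen, had at most 5 counts in a library.

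Among 13 other carbonyl and aldo-keto reductases, 8 were tested and 7 had a higher estimate. None passed in edgeR, where 3 had an unadjusted p under 0.05, and DESeq2 called 1, AKR1B10, named after its values were seen. AKR1B10, which reduces aldehydes and also the ketone of anthracyclines, lay at 1.68 ± 0.215 CPM in DMSO (SD, n = 2) and at 10.9 ± 4.60 CPM in doxorubicin (SD, n = 3), and its log2 fold change of 2.70 lay just outside the threshold in edgeR (adjusted p = 0.0121). Those with the highest mean CPM, AKR1B1 and AKR7A2, had log2 fold changes of 0.04 and 0.12.

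Of 18 other flavoenzymes and quinone reductases 16 were tested, and FDXR rose and passed the threshold. DESeq2 called 3, FDXR with AOX1 and CYB5R1, which were named after their values were seen and had 1.20 and 0.78 in edgeR (adjusted p = 0.0107 and 0.0285). FDXR, the ferredoxin reductase of mitochondria and a known target of p53, had 221 and 416 counts in DMSO, 3662 and 3950 at 0.2 μM and 6977 at 0.34 μM. The fit gave 3.75 on the log2 scale with a standard error of 0.33 (adjusted p = 0.00163 in edgeR's quasi-likelihood test), and the call was lost without replicate 2 of 0.2 μM, where the adjusted p was 0.0118. TXNRD1 and CYB5R3, with the highest mean CPM, had log2 fold changes of 0.35 and 0.06 and did not pass. Of 15 enzymes that take electrons from POR 10 were tested and none passed in edgeR, where 3 had an unadjusted p under 0.05, and 1 passed in DESeq2. CYP1B1 and CYP51A1, with the highest mean CPM among them, had -0.24 and -0.29.

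All 22 other NRF2 targets were tested, 16 with a higher and 6 with a lower estimate and a median log2 fold change of 0.27. edgeR called 2 and DESeq2 4, against 4.02% and 14.1% of all genes. TKT (transketolase) rose with 1.20 and BLVRB (biliverdin reductase B) with 1.22, with adjusted p-values of 0.00602 and 0.00784 in edgeR, and each call was lost with any single library left out. FTH1, the ferritin heavy chain, had 0.30 and did not pass. Among 20 regulators 18 were tested and MAFK, a small MAF partner of NRF2, rose with 1.48 (adjusted p = 0.00861 in edgeR), a call that any left-out library also ended. YBX1, a factor known to act on the ABCB1 promoter, had -0.48 and HIF1A -0.32, and neither passed. Of 7 other AHR targets 4 were tested and none passed in edgeR, where 1 had an unadjusted p under 0.05. CYP1B1 was again at -0.24 and TIPARP at 0.10. DESeq2 called ALDH3A1, which had 0 counts in DMSO, was kept only through the doxorubicin libraries and is described further below.

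**Figure D5:**
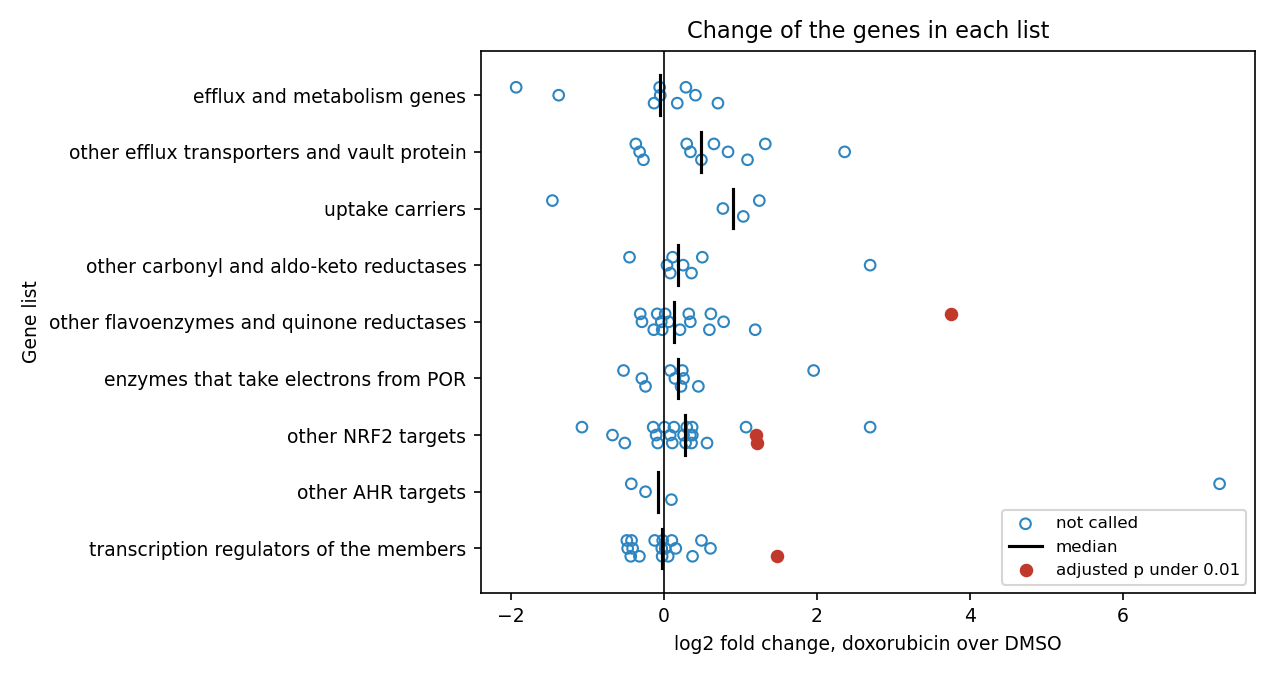
Fitted log2 fold change of each tested gene in the efflux and metabolism set and in the 8 lists around it, with black bars for the medians and filled points for an adjusted p under 0.01 in edgeR. The 4 filled points are FDXR at 3.75, MAFK at 1.48, BLVRB at 1.22 and TKT at 1.20, and the point at the far right is ALDH3A1, with 0 counts in DMSO.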

How the data were processed

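RNA-seq was available for 5 libraries of RPE1 cells. Per the labels and the study's methods, the authors enriched poly-A RNA, sequenced paired ends, used STAR to map them to hg38, and obtained gene counts from featureCounts of Rsubread with the iGenomes annotation. For versions, strand and multi-mapping settings: not given in the sources used here. Of the deposited tables, the one analysed holds raw counts per gene symbol. A second deposited table holds the authors' own DESeq2 comparison (fold changes and p-values) and was not used.

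Genes were kept by filterByExpr (minimum count 10, minimum total count 15), which left 14187 of 26485. Following the study's methods, which describe biological replicates and join the doses, 3 doxorubicin libraries were compared with 2 DMSO libraries by edgeR 4.0.16 (TMM factors, quasi-likelihood test, R 4.3.3) with Benjamini-Hochberg adjustment over all genes tested and a threshold of 0.01. A fit of 3 conditions gave the contrasts of each dose. DESeq2 1.42.0, limma 3.58.1 (voom), other scalings, no filter, thinned counts, a threshold of 0.05, the 0.2 μM pair alone, a replicate block and each library left out were the alternatives. Transcript lengths came from GENCODE (MANE Select), and promoter windows and coordinates from RefSeq on GRCh38.p14. Intervals on counts are exact and cover counting error only. The code of the fit was run on simulated counts with known changes. These had the same spread for every gene and no difference between replicate numbers, so they do not bear on the calls reported here.

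The 10 genes and the lists around them were chosen with earlier results of these data known. The text names all 10 genes, and from each list those that passed the threshold and the 2 with the highest mean CPM, except for a result that is not reported here. Genes outside this rule are said to be so where they appear or serve as markers.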

Additional observations from a re-analysis of the deposited data

How the results depend on the processing

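Over all genes, the 571 calls of edgeR at 0.01 became 1927 at a threshold of 0.05, 2026 in DESeq2, 1020 with no filter on low counts, 178 with the 0.2 μM pair alone and 1249 with the replicate block, and between 49 (without DMSO replicate 2) and 215 with a library left out. Among the 10 genes the count of 0 became 1 (CBR3) at 0.05, in DESeq2 and with the replicate block, where the log2 fold change was -1.51. With 2 pairs whose differences correlated (r = 0.510) and no label of a shared batch, the numbers were not taken as pairing the libraries, and the block left out the 0.34 μM library. At 0.2 μM DESeq2 called 919 genes against 185, and leaving out a library gave 55 to 227. At 0.34 μM DESeq2 called 794 against 98, and leaving out a DMSO library gave 62 to 106. In the lists DESeq2 called 13 genes against 4, and 0 to 2 were called with a library left out. With the union of exons, a length chosen after seeing the data, the DMSO ranks became 2 for ABCC1, 3 for CBR1, 4 for CBR3 and 5 for AKR1A1. The cause of these shifts was not tested.

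Signs changed for genes with estimates near 0 or uneven replicates. POR was 0.0034 with the replicate block, and ABCC2 at 0.34 μM was -0.0071 in DESeq2. With a library left out, the pooled log2 fold change ran from -0.65 to 0.65 for ABCC2, -2.75 to 0.025 for ABCG2, -0.24 to 0.15 for CBR1, -0.24 to 0.71 for NQO1 and -0.34 to 0.28 for POR. At 0.2 μM it ran from -1.18 to 0.56 for ABCC2, -2.50 to 0.34 for ABCG2, -0.26 to 0.14 for CBR1, -0.22 to 0.81 for NQO1 and -0.33 to 0.30 for POR. At 0.34 μM it ran from -0.50 to 0.79 for ABCC2, -0.22 to 0.17 for CBR1, -0.44 to 0.51 for NQO1 and -0.38 to 0.25 for POR. Between the doses it ran from -0.091 to 0.31 for ABCC1, -0.35 to 1.19 for ABCC2, -0.15 to 0.24 for CBR1, -0.39 to 0.89 for CBR3, -0.66 to 0.17 for NQO1 and -0.14 to 0.046 for POR. Of the alternatives for single genes, 193 kept direction and side of the threshold and 29 changed sign. A further 3, all of CBR3, passed: DESeq2, the replicate block and the main fit read at the looser threshold of 0.05. These counts include the 0.05 readings, which keep the main estimates. They also count the 0.2 μM pair alone and the fit without the 0.34 μM library separately, although these are the same fit. Where 1 library was left in a group, it was assumed to vary like the others. ABCB1 had at most 3 counts in a library. For ABCC2 the counting interval of the ratio (0.600 to 1.37) was narrower than the fitted interval of the fold (0.332 to 2.53).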

Other observations

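Of the 22 NRF2 targets outside the 10 genes, 17 were higher and 3 lower in the second replicate of both the DMSO and the 0.2 μM pair, whereas over all 14187 genes 30.6% were higher and 27.9% lower in both. HMOX1, the heme oxygenase, was 3.79-fold higher in the second DMSO library and 2.34-fold higher in the second 0.2 μM library. SLC7A11, the cystine carrier, was higher by 1.79-fold and 1.83-fold, and NQO1 moved the same way. AKR1C1 went the other way, at 0.220-fold and 0.314-fold. These genes were named after their values were seen, and the difference between replicate numbers was not tested.

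ALDH3A1, an aldehyde dehydrogenase controlled by AHR, had 0 counts in both DMSO libraries, 12 and 7 counts at 0.2 μM and 46 counts at 0.34 μM. Against a floor of 3 counts in each DMSO library its pooled level was at least 6.37-fold higher, or at least 3.22-fold without the 0.34 μM library, and its adjusted p was 0.0394 in edgeR's quasi-likelihood test and 0.00207 in DESeq2. It was named after its values were seen, and it passed the filter on low counts only through the doxorubicin libraries. The p-values are therefore given as a description only, and ALDH3A1 was not tested in every fit with a library left out.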
